A study of Mus musculus with 12 samples.

Results

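The genes described here are the neurotrophins and their receptors in the mouse cochlea. They are 9 genes taken by name, with earlier results of these data known: Bdnf, Ntf3, Ntf5, Ntrk2, Ntrk3, Ngfr, Gfra1, Ret and Sort1. All 9 were found among the 37432 genes of the deposited table. At P14, cochleae of mice that were wild-type or homozygous for the 35delG allele of Gjb2 (Gjb2 35delG/35delG) were divided into apical, middle and basal turns, and RNA of each turn was sequenced. There were 12 libraries, with 2 biological repeats for each genotype and turn. Values are FPKM (fragments scaled to transcript length and to mapped fragments) calculated by the authors and then divided by 1 factor per library, called scaled FPKM below. They are given per length of transcript and can be set side by side between genes.

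Gjb2 encodes connexin 26, a gap junction protein of cochlear supporting cells and fibrocytes, and 35delG is a frequent human deafness allele. The homozygous males came from male embryonic stem cells through tetraploid complementation, were delivered by cesarean section and were nursed by ICR females, on a background close to C57BL/6J. The wild-type mice were purchased males of the same age, so that genotype and origin of the animals cannot be told apart. How many animals or cochleae went into a library is not given. It is also not given whether the apical, middle and basal libraries of a genotype come from the same animals. Gjb2 itself ranged over 139.7 to 434 scaled FPKM in the wild-type group and over 58.6 to 451 in the homozygous group. These values do not read the deleted base and do not check the genotype.

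Neurotrophins are secreted growth factors that keep sensory neurons alive and shape their fibres and synapses. BDNF and the Ntf5 product bind the receptor tyrosine kinase TrkB (Ntrk2), the Ntf3 product binds TrkC (Ntrk3), and all of them, as well as their uncleaved precursors, bind the low-affinity receptor encoded by Ngfr, for the precursors together with sortilin (Sort1). In the cochlea, BDNF and the Ntf3 product made by hair cells and supporting cells reach spiral ganglion neurons, which carry TrkB and TrkC, and GDNF acts on neurons and glia through the co-receptor GFRA1 and the kinase RET.

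Markers of cochlear cells were present in the libraries, in very unequal amounts. The 12 neuron markers, of which Calb2 was the most abundant, summed in the wild-type libraries to 1235 and 1761 scaled FPKM at the apex, 2372 and 2999 in the middle turn and 79.1 and 945 at the base. The same sums in homozygous libraries were 307 and 569 at the apex, 578 and 126 in the middle turn and 4006 and 3894 at the base. Wild-type basal library 1 therefore stood far below every other wild-type library in neuron markers, with 1.70 scaled FPKM of the neurofilament gene Nefl against 182 in wild-type basal library 2, and both homozygous basal libraries stood above all others.

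The 10 markers of Schwann cells and myelin, with Mbp the most abundant, summed in wild-type to 2693 and 2865 at the apex, 19745 and 5865 in the middle turn and 1589 and 5588 at the base. In homozygous libraries they summed to 1704 and 2224, 835 and 844, and 9299 and 14733, in the same order of turns. Wild-type middle library 1 stood apart from its repeat, and both homozygous basal libraries were high again. Markers of oligodendrocytes, the myelin-forming cells of the central part of the nerve, summed to 1038 scaled FPKM over 7 genes in wild-type middle library 1, to 304 in wild-type basal library 2, and to 323 and 476 in the homozygous basal libraries. They did not exceed 9.92 in any of the other 8 libraries, and the most abundant of them was Mobp. The 6 astrocyte markers, led by Gfap, summed to 566, 234, 242 and 390.4 in those 4 libraries and to 62.8 to 110.4 in the others.

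The 12 hair cell markers, with the outer hair cell gene Ocm the most abundant, summed in wild-type to 654 and 647 at the apex, 80.6 and 159.6 in the middle turn and 184 and 151 at the base. The homozygous sums were 394 and 338 at the apex, 262 and 451 in the middle turn and 71.1 and 35.5 at the base. Without Ocm, the sums of the homozygous middle turn (103 and 145) overlapped those of the wild-type middle turn (80.3 and 139), so Ocm carried most of the gap there. The outer hair cell genes Slc26a5 (7.78 and 11.7 against 0.0255 and 0.876), Strc (4.81 and 8.84 against 0.0455 and 0.352) and Chrna10 (5.53 and 12.2 against 0.0373 and 1.23) were higher along with Ocm in homozygous middle libraries, and Atp2b2 was lower (11.2 and 13.1 against 23.3 and 27.8). With or without Ocm, the sum was lowest in the homozygous basal turn, although Atp2b2 was not low there (38.2 and 13.0 against 22.5 and 8.65 in wild-type). In that turn of homozygous mice the inner hair cell gene Otof was at 0.0982 and 0.109, and the outer hair cell gene Slc26a5 was at 0.0509 in library 1 and listed at 0 in library 2. The 11 supporting cell markers, led by Ceacam16, summed in wild-type to 3262 and 3541, 1859.5 and 1775, and 3038 and 909, and in homozygous libraries to 2562 and 1915, 1247 and 1821, and 305 and 251. Both homozygous basal libraries had the lowest sums, mostly through low Ceacam16 and Epyc. Without these 2 genes the wild-type sums were 414 and 415 at the apex, 248.81 and 266 in the middle turn and 396 and 401 at the base, and the homozygous ones 937 and 827, 408 and 630, and 233 and 248.97, so that homozygous libraries were then the higher ones at the apex and mid-turn and the lower ones at the base. Prox1 was higher in the homozygous basal libraries (12 and 3.84) than in the wild-type ones (0.28 and 1.01), and Fabp7 and Sox2 overlapped there. Of the hair cell markers, limma called 1 higher in the middle and 3 lower in the basal turn of homozygous mice, and of the supporting cell markers 1 higher in the apical and 3 lower in the basal turn. Of all genes tested, limma called 0.179%, 0.179% and 4.29% from apex to base. The gene Slc1a3 is in both the supporting cell and the astrocyte list. The remaining defining markers listed at 0 were Mog (oligodendrocytes) in wild-type apical library 2 and Kcne1 (stria vascularis) in wild-type apical library 1, wild-type middle library 2, wild-type basal library 1 and homozygous basal library 2.

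**Figure D1:**
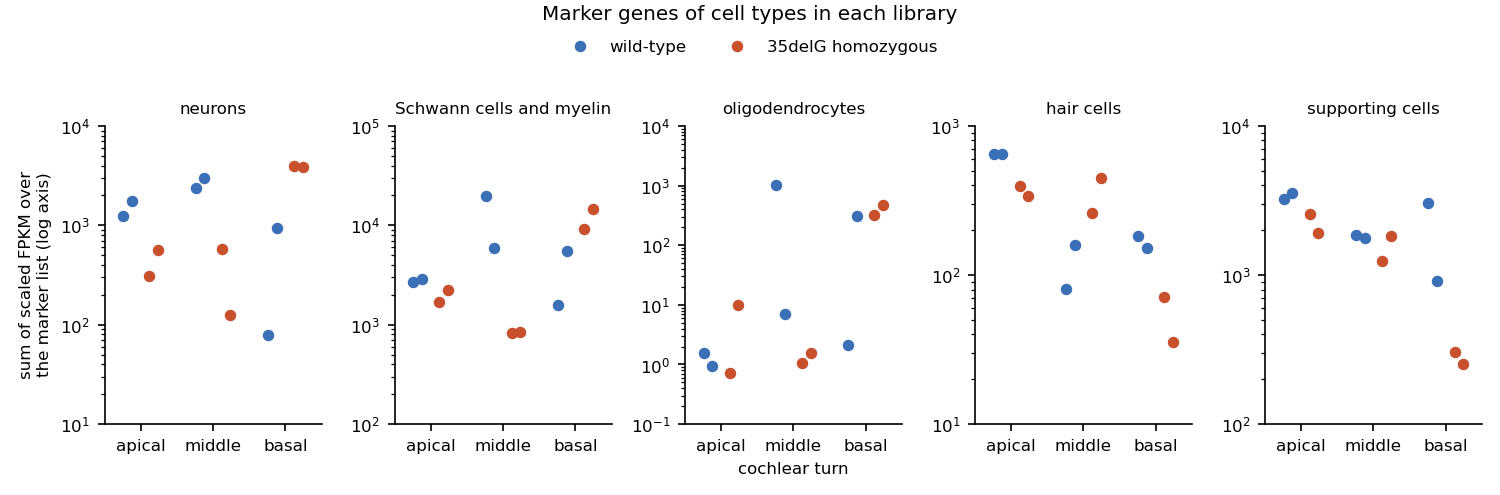
Sum of scaled FPKM over marker genes of 5 cell types (vertical, log axis) in each cochlear turn (horizontal), with 1 point per library, wild-type in blue and 35delG homozygous in red. The homozygous basal libraries have the highest neuron sums (4006 and 3894) and the lowest supporting cell sums (305 and 251), and wild-type basal library 1 has the lowest neuron sum (79.1).

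Since the libraries are bulk RNA of whole turns, fewer cells of a type and less RNA per cell cannot be told apart in them. In stained cochleae at P14, the paper found hair cells and their neighbouring supporting cells intact in homozygous mice. Differences between genotypes were tested in each turn with limma on log2(scaled FPKM + 1) over 16215 genes that had at least 1 FPKM in at least 2 libraries. A gene was called at a Benjamini-Hochberg adjusted p under 0.01 with a fold change over 2, the thresholds that the authors used on read counts. With these thresholds the paper called more genes in each turn than were called here, and most in the middle turn. A gene not called here is therefore not shown to be unchanged. All 9 genes passed the filter. Bdnf passed it through the 6 wild-type libraries and Ret through 2 libraries, both homozygous basal, so that passing already requires a high value there.

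The level of the 9 genes spanned a wide range. Averaged over the 12 libraries, the order of levels was Gfra1 (46.8 scaled FPKM), Sort1 (32.7), Ntrk2 (17.8), Ngfr (10.6), Ntrk3 (8.62), Ntf3 (1.45), Bdnf (1.42), Ntf5 (0.99) and Ret (0.604). On average the receptors were above the ligands, except for Ret, which was the lowest. Ngfr was below all 3 ligands in wild-type basal library 1, and below Ntf3 and Ntf5 in homozygous middle library 2. Neighbours in this order often changed places: Gfra1 was above Sort1 in 8 of 12 libraries, Ngfr above Ntrk3 in 5, Ntf3 above Bdnf in 7 and Bdnf above Ntf5 in 6. Sort1 was above Ntrk2 in 10 libraries, Ntrk2 above Ngfr in 11, Ntf5 above Ret in 10, and Ntrk3 above Ntf3 in all 12.

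**Figure D2:**
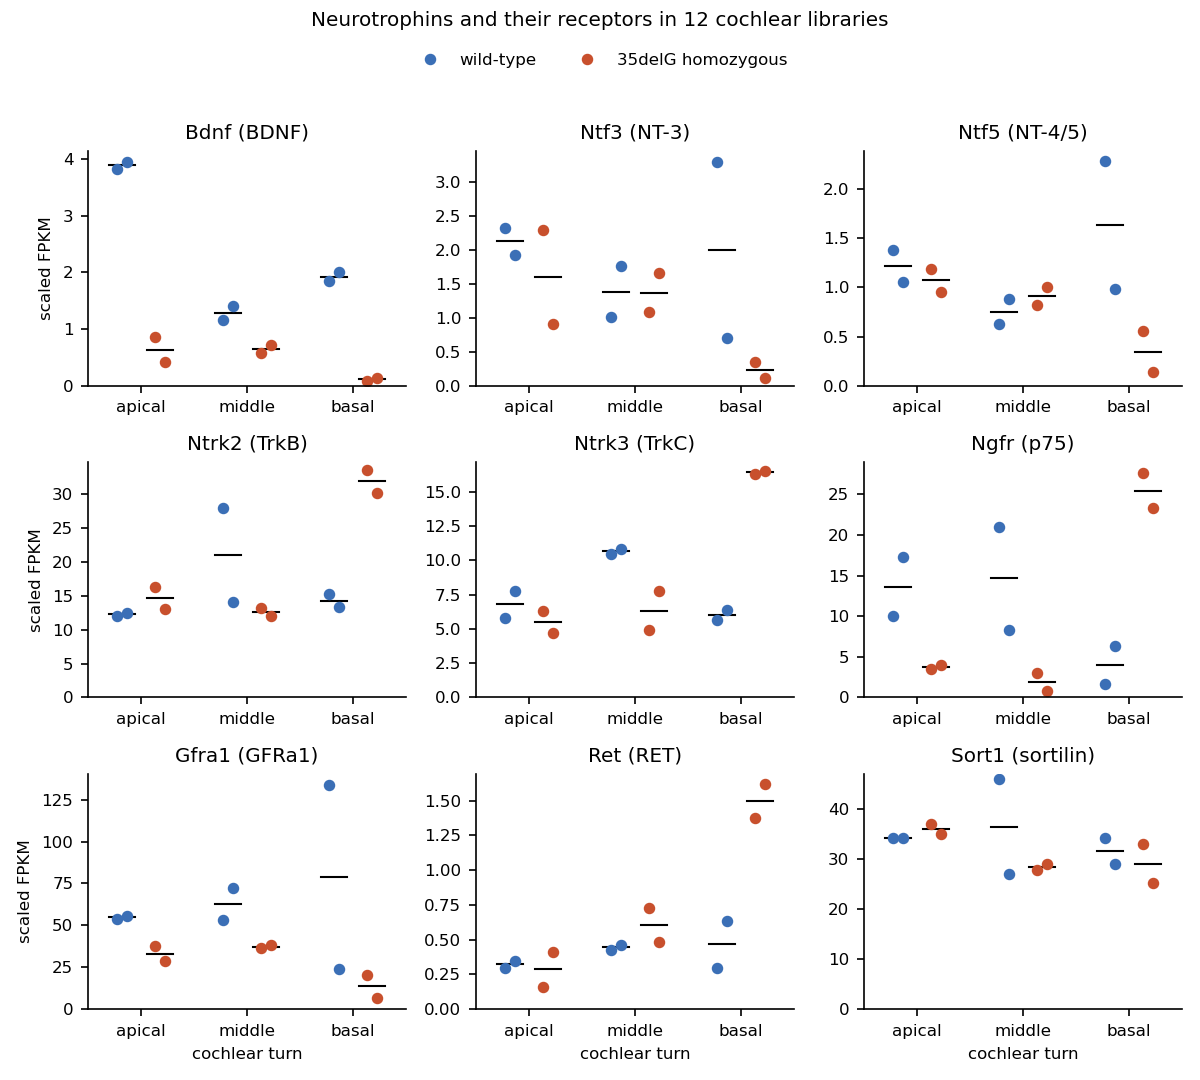
Scaled FPKM of each of the 9 genes (vertical) by cochlear turn (horizontal), with 1 point per library and a line at the mean of the 2 repeats, wild-type in blue and 35delG homozygous in red. Every homozygous value of Bdnf, at most 0.863, lies below every wild-type value, at least 1.16, while Ntrk3 and Ngfr are highest in the homozygous basal turn.

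Among the ligands, Bdnf was lower in every homozygous library than in any wild-type library. Bdnf encodes the brain-derived neurotrophic factor, whose gene has several alternative first exons that splice to a shared coding exon. In wild-type libraries it was measured at 3.82 and 3.95 scaled FPKM at the apex, 1.16 and 1.40 in the middle turn and 1.85 and 2.0 at the base. In homozygous libraries it was at 0.863 and 0.415 at the apex, 0.578 and 0.723 in the middle turn and 0.0842 and 0.143 at the base. The wild-type apical pair was the highest, the homozygous basal pair was close to 0, and the genotypes did not overlap in any turn. Of the 16215 genes tested, 107 (0.66%) had all 6 homozygous libraries below all 6 wild-type libraries, and Bdnf was the only 1 of the 9 genes among them. Bdnf is in this set through its wild-type libraries alone, as no homozygous library reached 1 FPKM. Without the filter, 149 of 36005 genes (0.414%) had this order. The 6 libraries of a genotype may share animals between turns.

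The group means of Bdnf, each with its SD over 2 repeats, were 3.89 ± 0.0912 in wild-type and 0.639 ± 0.317 in homozygous apical turns, a 6.08-fold difference. In the middle turn they were 1.28 ± 0.174 and 0.651 ± 0.103, a 1.97-fold difference. In the basal turn they were 1.93 ± 0.109 and 0.114 ± 0.0419, a 16.9-fold difference. The level was lower in both of 2 homozygous libraries in each turn, and each gap exceeded the spread between repeats. Averaged over the 3 turns, Bdnf fell by 1.15 on the log2 scale (standard error 0.11, limma, Benjamini-Hochberg adjusted p = 0.00221, lower in 6 of 6 homozygous libraries). The fit behind this average treats all libraries as independent. Since turns of a genotype may share animals, these 6 libraries may not be 6 independent repeats. Bdnf was the 1 gene of the 9 called in this average, in which 0.376% of all genes tested were called, and it was not called without the filter (limma adjusted p = 0.0119). By turn, its log2 difference was -1.39 in the basal turn (limma adjusted p = 0.00528, lower in 2 of 2 libraries), which was called, and -1.59 in the apical turn (limma adjusted p = 0.0106, lower in 2 of 2 libraries), which missed the threshold. With library weights the apical difference was called and the basal one was not (limma adjusted p = 0.00138 and 0.0280), and without a trend in the fit both were. The basal call was also lost with no filter, with only the libraries compared and with a replicate block, and was kept in 6 of 10 settings. The size of these differences depends on the pseudocount of 1, since the values are near or below it: with 0.01 the basal difference was -4.01 and that of the average -2.55. In the middle turn it was -0.47 (limma adjusted p = 0.174, lower in 2 of 2 libraries, 95% confidence interval -0.91 to -0.03), which was not called.

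The call of Bdnf in the average over turns did not hold in the fits without wild-type apical library 1 or 2, wild-type middle library 2, homozygous apical library 2 or homozygous middle library 1. Its log2 difference stayed between -1.21 and -1.08 in all 12 fits that each left out 1 library, with limma adjusted p from 0.00193 to 0.0203. The basal call held in 3 of those 12 fits, namely without wild-type basal library 2 or homozygous middle library 1 or 2, at differences of -1.39 to -1.36 and limma adjusted p of 0.00580 to 0.00900. Over all 12 the basal difference ran from -1.43 to -1.35 and the limma adjusted p reached 0.0243. In an average over the apical and middle turns only, Bdnf was called at -1.03. This average was chosen after seeing the data, because most hair cell markers were low in the homozygous basal libraries. The call was lost without wild-type middle library 1.

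Cell type markers moved with Bdnf in part. Within the apical turn, hair cell markers were lower in homozygous libraries as Bdnf was, with sums of 394 and 338 against 654 and 647 (without Ocm 173 and 119 against 294 in both) and Otof at 23.7 and 13.9 against 59.8 and 61.7. Across turns, the homozygous apical and middle libraries had hair cell sums of 262 to 451 scaled FPKM, above the 80.6 to 184 of the wild-type middle and basal libraries, while Bdnf was lower in the former (at most 0.863) than in the latter (at least 1.16). That sum is led by Ocm, and without Ocm the 2 sets overlap (103 to 173 and 80.3 to 163). The inner hair cell gene Otof was at 13.9 to 23.7 in those homozygous libraries and at 9.42 to 32.2 in those wild-type libraries, which overlap. Across the 12 libraries, which share 6 groups of genotype and turn, Pearson's r of log2 Bdnf with the log2 marker sum was 0.60 for hair cells (0.81 without Ocm), 0.72 for supporting cells (0.057 without Ceacam16 and Epyc) and -0.10 for neurons. Markers of the stria vascularis moved opposite to Bdnf in 2 turns, with sums of 221 and 226 in wild-type against 668 and 1641 in homozygous apical libraries and 279 and 175 against 773 and 1245 in middle ones. The part of cell composition in the Bdnf difference was not tested.

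**Figure D3:**
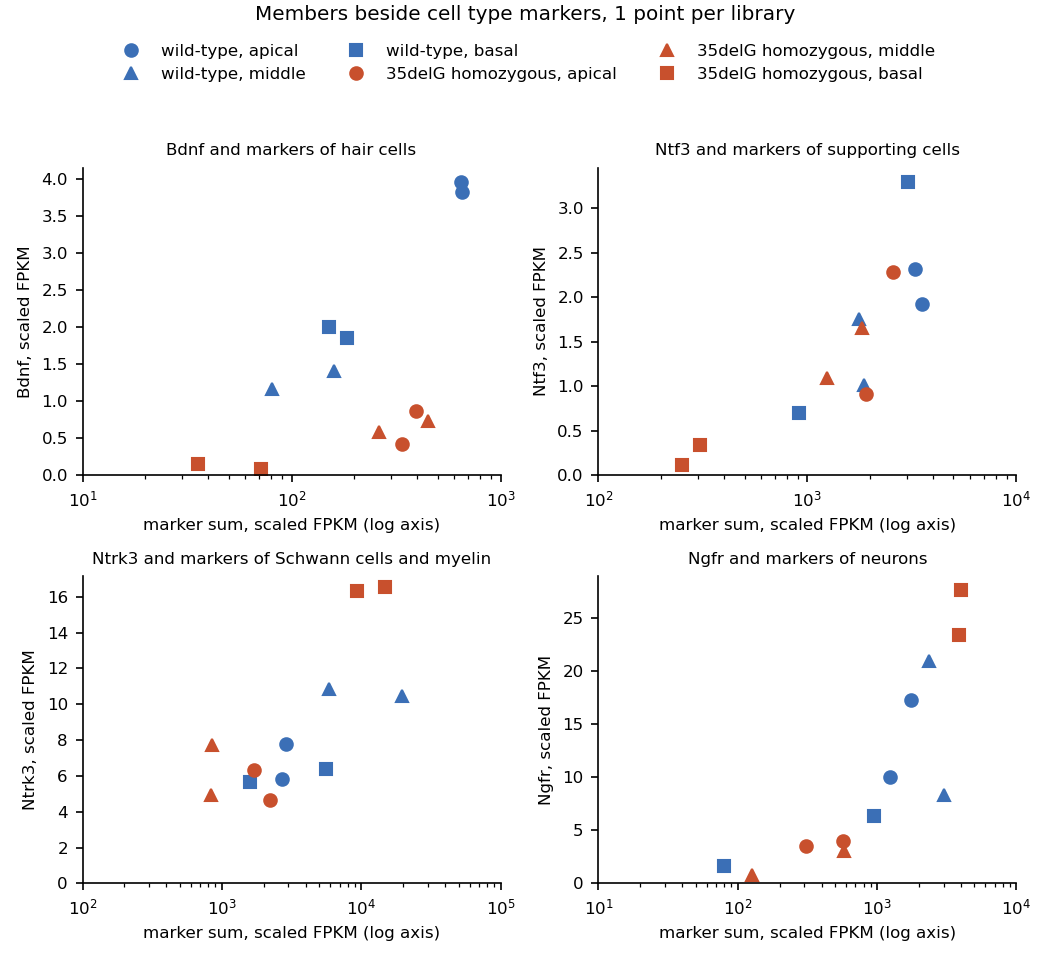
Scaled FPKM of Bdnf, Ntf3, Ntrk3 and Ngfr (vertical) against the summed scaled FPKM of a marker list (horizontal, log axis), with 1 point per library, colour for genotype and shape for turn. Homozygous apical and middle libraries lie below and to the right of wild-type middle and basal libraries in the Bdnf panel, where the sum is led by Ocm (without Ocm the 2 sets overlap), and Ngfr runs along the neuron sum (r = 0.93 over 12 libraries on log2 scales).

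Within the wild-type cochlea, Bdnf was highest at the apex. Its log2 difference was -1.10 for middle minus apical turn (limma adjusted p = 0.0547, lower in 2 of 2 middle libraries) and -0.74 for basal minus apical turn (limma adjusted p = 0.104, lower in 2 of 2 basal libraries), and neither was called. In homozygous cochleae the apical and middle turns overlapped, with a middle minus apical difference of 0.02, and both basal libraries lay below the other 4. The genotype effect on Bdnf in the middle turn minus that in the apical turn was 1.12 on the log2 scale (unadjusted p = 0.00282, limma adjusted p = 0.435), so that a different effect in these turns was not shown. The same difference between basal and middle turns was -0.93 (limma adjusted p = 0.0407), also not called.

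The Bdnf gene, ENSMUSG00000048482.14, lies on the plus strand of chromosome 2 at 109674700 to 109727007 (GRCm38), with 11 annotated transcripts from several starts. The FPKM sum these transcripts, so the start in use cannot be read from them. RefSeq promoter windows were available for Bdnf, Ntf3, Ntrk2, Ngfr and Gfra1, 5 of the 9 genes, with 12 windows in all, and were lacking for Ntf5, Ntrk3, Ret and Sort1. Since Bdnf is the gene whose values separate the genotypes, the 250 bases before 1 of its 7 starts are shown, chr2:109692186-109692435 on the plus strand of GRCm38.p6. This window was chosen because it holds TGACG or its reverse complement CGTCA, the half-site letters of the cAMP response element bound by CREB, a factor known for activity-dependent Bdnf transcription.
Bdnf: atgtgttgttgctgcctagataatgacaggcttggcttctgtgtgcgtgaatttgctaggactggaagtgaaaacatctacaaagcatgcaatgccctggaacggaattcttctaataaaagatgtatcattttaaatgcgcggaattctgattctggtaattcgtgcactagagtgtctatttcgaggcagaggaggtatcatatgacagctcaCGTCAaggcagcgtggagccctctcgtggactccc
Capitals mark the match, 35 bases before the start. Of the 7 Bdnf windows, 1 held these letters on either strand, as did 1 of all 12 windows of the 5 genes. Among 32851 RefSeq promoter windows of the same length, 5836 (17.8%) held them. The match describes letters in the window and does not show that a factor binds there or that it bears on the difference between genotypes.

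Ntf3, which encodes neurotrophin 3, the main neurotrophin of cochlear supporting cells and inner hair cells, separated the genotypes in the basal turn and not in the others. It was measured in wild-type libraries at 2.32 and 1.92 scaled FPKM at the apex, 1.01 and 1.76 in the middle turn and 3.3 and 0.70 at the base. In homozygous libraries it was at 2.28 and 0.913, 1.09 and 1.66, and 0.344 and 0.108. The genotypes overlapped in the apical and middle turns, and both homozygous basal libraries were the lowest of all 12. The basal log2 difference was -1.15 (95% confidence interval -2.13 to -0.17, limma adjusted p = 0.101, lower in 2 of 2 libraries) and was not called. It was -1.82 and called without wild-type basal library 2 (limma adjusted p = 0.00936) and -0.48 without wild-type basal library 1, so 1 library decided it. The log2 differences were -0.31 at the apex and -0.00 for the middle turn, and the sign of the latter turned to 0.10 with FPKM as deposited and to 0.071 with libraries scaled to equal sums. Over the 12 libraries, which share the groups, Ntf3 had r = 0.90 with the supporting cell sum, and 0.43 without Ceacam16 and Epyc.

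Ntf5, which encodes the TrkB ligand neurotrophin 4/5, had low values in every library. In wild-type it was at 1.38 and 1.06 scaled FPKM at the apex, 0.626 and 0.882 in the middle turn and 2.28 and 0.988 at the base, and in homozygous libraries at 1.19 and 0.956, 0.819 and 1.0, and 0.556 and 0.141. The genotypes overlapped in apical and middle turns, and the homozygous basal pair was again the lowest. Its log2 difference was -0.10 (apical), 0.13 (middle) and -0.94 (basal turn), and the last was not called (limma adjusted p = 0.0459, lower in 2 of 2 libraries). The basal difference was -0.58 without wild-type basal library 1 and -1.30 without library 2. The 3 ligands thus were each at their lowest in the homozygous basal turn, where the hair cell and supporting cell sums, led by Ocm and Ceacam16, were lowest too. The part of those cells in the basal values was not tested. Ntf3 and Ntf5 varied together over the 12 libraries (r = 0.89), and the ratio of Bdnf to Ntf3 ran from 0.245 in a homozygous basal to 2.86 in a wild-type basal library.

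Of the Trk receptor genes, Ntrk3 was called between genotypes and Ntrk2 was not, and Ntrk3 rose in the basal turn. Ntrk3 encodes TrkC, the receptor of neurotrophin 3. It was measured in wild-type libraries at 5.81 and 7.78 scaled FPKM at the apex, 10.5 and 10.9 in the middle turn and 5.65 and 6.36 at the base. In homozygous libraries it was at 6.33 and 4.68 at the apex, 4.95 and 7.74 in the middle turn and 16.3 and 16.6 at the base. The homozygous basal pair was above all 10 other libraries, the wild-type middle pair was next, and the genotypes overlapped in the apical turn alone. The basal group means were 6.0 ± 0.501 in wild-type and 16.4 ± 0.167 in homozygous libraries (SD, 2 repeats each), a 2.74-fold difference. On the log2 scale this was 1.32 (standard error 0.22, limma adjusted p = 0.00805, higher in 2 of 2 libraries). With Bdnf, this made 2 of 9 genes called in the basal turn, in which 4.29% of all genes tested were called.

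In the apical turn, the log2 difference of Ntrk3 was -0.26 (limma adjusted p = 0.609, groups overlapping). In the middle turn it was -0.69 (limma adjusted p = 0.0974, lower in 2 of 2 libraries). The middle difference was -0.418 without homozygous middle library 1 and -0.973 without library 2. The genotype effect in the basal turn minus that in the middle turn was itself tested and came to 2.01 (standard error 0.31, limma adjusted p = 0.00392), so that the difference between the 2 groups of mice in Ntrk3 was not the same in these turns, with 2 of 2 homozygous libraries higher in the basal and 2 of 2 lower in the middle turn. The same difference between basal and apical turns was 1.58 (limma adjusted p = 0.0178) and missed the threshold. Within homozygous cochleae, Ntrk3 rose from the apical to the basal turn by 1.43 (limma adjusted p = 0.00627) and from the middle to the basal turn by 1.27 (limma adjusted p = 0.00789) on the log2 scale, in 2 of 2 basal libraries each. These calls held in 4 and 2 of the 12 fits that each left out 1 library, and the second difference fell to 0.997 without homozygous middle library 1. In wild-type cochleae, basal minus middle was -0.74 (limma adjusted p = 0.164, lower in 2 of 2 libraries).

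The basal call of Ntrk3 was lost with no filter, equal sums, only the libraries compared, library weights and a replicate block, and was kept in 6 of 11 settings. It held in 3 of 12 fits that each left out 1 library, those without wild-type basal library 2 or homozygous middle library 1 or 2, at 1.32 to 1.39 and limma adjusted p of 0.00862 to 0.00884. Over all 12 the difference ran from 1.24 to 1.39 and the limma adjusted p reached 0.0394. The call of the difference between basal and middle effects held in 8 of 12, and not without wild-type middle library 1 or 2 or homozygous basal library 1 or 2, where the highest limma adjusted p was 0.0146. The summed markers of Schwann cells and myelin (9299 and 14733 in homozygous basal libraries) and of neurons (4006 and 3894) were high in the same libraries, and Ntrk3 followed them with r = 0.76 and 0.69 over 12 libraries that share the groups. Wild-type middle library 1, with the highest myelin sum (19745), had 10.5 scaled FPKM of Ntrk3, below both homozygous basal libraries. Ntrk3 ran opposite to the hair cell sum (r = -0.74, and -0.63 without Ocm). It also ran opposite to the supporting cell sum (r = -0.71, and -0.73 without Ceacam16 and Epyc). The part of nerve, glial or other cell content in the Ntrk3 difference was not tested.

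Ntrk2, which encodes the BDNF receptor TrkB, had the same high homozygous basal pair. It was measured in wild-type libraries at 12 and 12.5 scaled FPKM at the apex, 27.9 and 14.1 in the middle turn and 15.2 and 13.3 at the base, and in homozygous libraries at 16.3 and 13.1, 13.2 and 12, and 33.6 and 30.2. The homozygous basal pair was the highest, followed by the glia-rich wild-type middle library 1, and the other 9 libraries lay between 12 and 16.3. The log2 differences were 0.23 for the apical (limma adjusted p = 0.726, higher in 2 of 2 libraries), -0.62 for the middle (limma adjusted p = 0.19, lower in 2 of 2) and 1.11 for the basal turn (limma adjusted p = 0.0237, higher in 2 of 2). None of these was called. The middle value was -0.154 without wild-type middle library 1 and -1.09 without library 2. The basal value was called without either wild-type middle library, at 1.11 (limma adjusted p = 0.00926 without library 1 and 0.00940 without library 2). The genotype effect in the basal minus that in the middle turn was 1.73 (limma adjusted p = 0.0133), and it was 1.27 without wild-type middle library 1 and 2.20, called, without library 2.

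Ntrk2 was above Ntrk3 in all 12 libraries, by 1.30 to 2.79 times, and both varied together (r = 0.82). Both genes make full-length receptors with a kinase domain and truncated forms without it, and the truncated TrkB is the main form in glia. The gene-level FPKM do not separate these forms. Over the 12 libraries Ntrk2 had r = 0.82 with the astrocyte, 0.77 with the Schwann cell and myelin and -0.86 with the hair cell sum (-0.77 without Ocm).

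Ngfr, which encodes the low-affinity receptor, had opposite genotype differences along the cochlea. In wild-type libraries it was measured at 10.04 and 17.3 scaled FPKM at the apex, 21.0 and 8.34 in the middle turn and 1.68 and 6.34 at the base. In homozygous libraries it was at 3.48 and 4.04 at the apex, 3.04 and 0.816 in the middle turn and 27.6 and 23.3 at the base. Homozygous libraries were below wild-type in apical and middle turns and above it in the basal turn, without overlap in any of the 3. The log2 differences were -1.58 for the apical (limma adjusted p = 0.224), -2.40 for the middle (limma adjusted p = 0.0538) and 2.57 for the basal turn (limma adjusted p = 0.0185), each shown by 2 of 2 libraries, and none was called.

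The genotype effect on Ngfr in the basal minus that in the middle turn was 4.98 on the log2 scale (standard error 0.82, limma adjusted p = 0.00453) and was called, with 2 of 2 homozygous libraries higher in the basal and 2 of 2 lower in the middle turn. Ntrk3 and Ngfr were the 2 of 9 genes called in this comparison, in which 8.91% of all genes tested were called, and 5 of 9 had an unadjusted p under 0.05, beside 37.7% of all genes. Basal minus apical came to 4.15 (limma adjusted p = 0.0174) and was not called. In homozygous cochleae, Ngfr rose from the middle to the basal turn by 3.28 on the log2 scale (limma adjusted p = 0.00840, higher in 2 of 2 libraries), a call that held in 2 of 12 fits without 1 library. The difference between basal and middle effects was called in 6 of 12 fits that each left out 1 library, at 4.24 to 5.70 and limma adjusted p of 0.00144 to 0.00952. The p reached 0.0170 in the other 6, and it was not called without wild-type middle library 1, either homozygous apical library, either homozygous basal library or homozygous middle library 2. The basal value alone was 3.3 and called without wild-type basal library 2 (limma adjusted p = 0.00562) and 1.84 without the neuron-poor wild-type basal library 1.

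Ngfr followed the nerve markers more closely than any other of the 9 genes, with r = 0.93 for the neuron sum and 0.86 for the Schwann cell and myelin sum over the 12 libraries. Neuron markers were lower in homozygous than in wild-type apical and middle libraries and higher in the basal ones, the same order as for Ngfr, with 11 of 12 markers lower, 11 of 12 lower and 11 of 12 higher in the 3 turns. Limma called 0 of the 12 in each turn, and 1, 8 and 12 of them had an unadjusted p under 0.05, beside 16.4%, 25.4% and 32.4% of all genes. Of the 10 Schwann cell and myelin markers, 2 were called lower in the middle (0.179% of all genes called) and 3 higher in the basal turn (4.29%). The part of nerve tissue taken into each piece in the Ngfr differences was not tested.

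Sort1, which encodes sortilin, a sorting receptor that binds neurotrophin precursors, differed least of the 9 genes in the basal turn. Its values lay between 27 and 46.1 scaled FPKM for wild-type mice and between 25.2 and 37.1 for homozygous mice, and the genotypes overlapped in the middle and basal turns. In the apical turn the wild-type values were 34.4 and 34.3 and the homozygous values 37.1 and 35.1. The log2 differences were 0.07 at the apex, -0.058 there with libraries scaled to equal sums, -0.30 for the middle and -0.13 for the basal turn. The 95% confidence interval in the basal turn was -0.66 to 0.41. The ratio of Sort1 to Ngfr, both measured per length, ran from 1.08 in a homozygous basal to 35.7 in a homozygous middle library.

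Of the GDNF receptor genes among the 9, Gfra1 and Ret, neither was called between genotypes in any turn. Gfra1, which encodes the membrane-anchored co-receptor that presents GDNF, was measured in wild-type libraries at 53.9 and 55.8 scaled FPKM at the apex, 53.1 and 72.5 in the middle turn and 134 and 24.1 at the base. In homozygous libraries it was at 37.4 and 28.8, 36.4 and 38.3, and 20.2 and 6.79. Every homozygous library was below both wild-type libraries of its turn, but wild-type basal library 2 was below all 4 homozygous apical and middle libraries. The log2 difference was -0.72 for the apical (limma adjusted p = 0.664), -0.72 for the middle (limma adjusted p = 0.559) and -2.18 for the basal turn (limma adjusted p = 0.0615), each shown by 2 of 2 libraries, and none was called. The basal value rested on the wild-type pair: it was -3.39 and called without library 2 (limma adjusted p = 0.00257) and -0.97 without library 1. Gfra1 varied with the supporting cell sum (r = 0.83, and 0.13 without Ceacam16 and Epyc) and with Ntf3 (r = 0.89) over the 12 libraries.

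Ret, which encodes the kinase that GFRA1 and GDNF engage, had the lowest mean of the 9 genes over the 12 libraries, but in both homozygous basal libraries it was above Bdnf, Ntf3 and Ntf5. It was at 0.299 and 0.348, 0.427 and 0.464, and 0.299 and 0.631 scaled FPKM in wild-type apical, middle and basal libraries, and at 0.158 and 0.414, 0.726 and 0.485, and 1.38 and 1.62 in the homozygous ones. No library outside the homozygous basal pair reached 1, and that pair is the one through which Ret passed the filter. The log2 difference was -0.05 (apical), 0.15 (middle) and 0.78 (basal turn) (limma adjusted p = 0.0356, higher in 2 of 2 libraries), and none was called. The ratio of Gfra1 to Ret ran from 4.19 in a homozygous basal to 449 in a wild-type basal library. Ret ran opposite to the supporting cell sum (r = -0.97 over 12 libraries, and -0.61 without Ceacam16 and Epyc).

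Set side by side, the genotype differences of the 9 genes gave no call in the apical or middle turn and 2 in the basal turn. In the apical turn limma called 0 of 9 genes, where 0.179% of all genes tested were called, and 2 of 9 (Bdnf and Ngfr) had an unadjusted p under 0.05, as did 16.4% of all genes tested. In the middle turn limma called 0 of 9, again beside 0.179% of all genes, and 4 of 9 (Bdnf, Ntrk2, Ntrk3 and Ngfr) had an unadjusted p under 0.05, beside 25.4% of all genes. In the basal turn 8 of 9 genes, all but Sort1, had an unadjusted p under 0.05, beside 32.4% of all genes. Counting genes without overlap between genotypes, the homozygous pair was above the wild-type pair for 2 genes and below it for 3 in apical (26.9% and 32.1% of all genes tested), above for 1 and below for 5 in middle (31.3% and 28.2%), and above for 4 and below for 4 in basal turns (26.2% and 27.8%). The median log2 difference of the 9 genes was -0.26, -0.47 and -0.13 in the 3 turns, beside -0.03, 0.04 and -0.02 over all genes tested. Every call among the 9 genes was lost when 36005 genes were tested without the filter, and the limma adjusted p of Bdnf in the mean of the turns was then 0.0119 (0.00102 to 0.0119 over the settings tried).

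**Figure D4:**
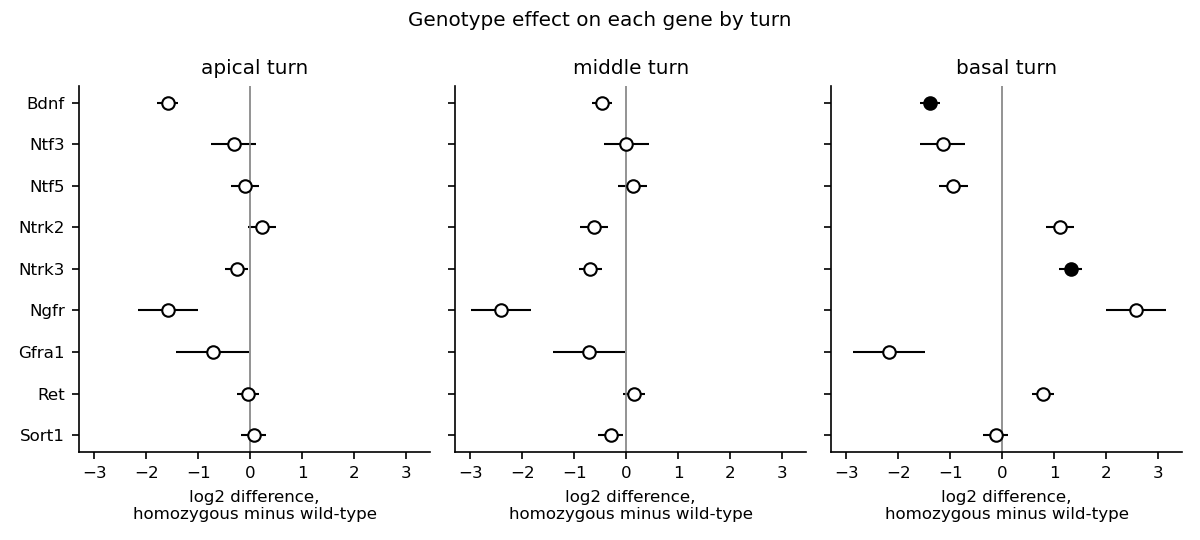
Log2 difference, homozygous minus wild-type, of each of the 9 genes in each turn, with bars for the standard error from limma on either side and filled points for called genes. Bdnf is below 0 in all 3 turns, and Ntrk3 and Ngfr are below 0 in the middle turn and above 0 in the basal turn (1.32 and 2.57).

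Comparisons between turns gave few calls among the 9 genes. For the difference of the genotype effect between basal and apical turns, limma called 0 of 9 genes (0.796% of all genes were called), and 4 of 9, namely Ntrk2, Ntrk3, Ngfr and Ret, had an unadjusted p under 0.05, beside 28.4% of all genes. Between middle and apical turns limma called 0 of 9, as it called 0% of all genes, and 1 of 9, Bdnf, had an unadjusted p under 0.05, beside 8.05% of all genes. In wild-type cochleae limma called 0 of 9 genes between basal and apical turns (0.0863% of all genes called, and 2 of 9, Bdnf and Ngfr, at an unadjusted p under 0.05 beside 20.3% of all genes). It called 0 of 9 between basal and middle turns (0% of all genes called, and 2 of 9, Ntrk3 and Ngfr, at an unadjusted p under 0.05 beside 15.2%). Between middle and apical turns it called 0 of 9 (0.0863% of all genes called, and 3 of 9, Bdnf, Ntrk2 and Ntrk3, at an unadjusted p under 0.05 beside 19.9%).

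In homozygous cochleae limma called 1 of 9 genes, Ntrk3, between basal and apical turns, where 4.06% of all genes were called, and 7 of 9 had an unadjusted p under 0.05, beside 32.9% of all genes. Between basal and middle turns it called 2 of 9, Ntrk3 and Ngfr, where 4.66% of all genes were called, and 5 of 9 had an unadjusted p under 0.05, beside 34.6%. Between middle and apical turns it called 0 of 9 and 0% of all genes, and 0 of 9 had an unadjusted p under 0.05, beside 2.65% of all genes. The comparisons between turns share libraries with those between genotypes and with each other, so their calls are not independent of each other.

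Around the 9 genes, 67 further genes of the same pathways were measured, and 57 of them passed the filter. The list was drawn up with earlier results of these data known. How calls among these further genes depend on the settings or on single libraries is not given here. Several of the calls lay close to the threshold. In the apical turn limma called 0 of the 57, with 11 at an unadjusted p under 0.05 beside 16.4% of all genes. It called 1 in the middle turn (0.179% of all genes) and 9 in the basal turn (15.8%, beside 4.29% of all genes), of which 6 were higher and 3 lower in homozygous libraries. The median log2 difference of the 57 was -0.01, -0.06 and -0.05 in the 3 turns, beside -0.03, 0.04 and -0.02 over all genes tested. For the mean of the 3 turns limma called 0 of 57, with 10 at an unadjusted p under 0.05 beside 18.6% of all genes.

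Among the 11 tested ligand, receptor and co-receptor genes, 4 were called in the basal turn, in which 4.29% of all genes were called. Sorcs1, which encodes a sorting receptor related to sortilin, was at 5.57 and 5.78 scaled FPKM in wild-type middle and 1.08 and 1.86 in wild-type basal libraries, against 0.682 and 1.04 in homozygous middle and 7.24 and 8.75 in homozygous basal libraries. It was low in 1 turn and high in the other in each genotype, in reverse, without overlap. It fell in the middle turn (log2 difference -1.85, limma adjusted p = 0.00889, lower in 2 of 2 libraries) and rose in the basal turn (1.88, limma adjusted p = 0.00344, higher in 2 of 2 libraries), and the difference of the effects was 3.73 (limma adjusted p = 0.00113). Lingo1, which encodes a neuronal co-receptor that can partner with the Ngfr product, rose in the basal turn by 2.07 on the log2 scale (limma adjusted p = 0.00664, higher in 2 of 2 libraries), and Islr2, which encodes a neuronal membrane protein that interacts with Trk receptors, rose by 2.75 (limma adjusted p = 0.00849, higher in 2 of 2 libraries). Tnfrsf19, a receptor of the same superfamily as Ngfr, fell there (log2 difference -1.49, limma adjusted p = 0.00748, lower in 2 of 2 libraries). Neuron markers moved in the same way as Sorcs1, Lingo1 and Islr2 there, with sums of 4006 and 3894 in homozygous against 79.1 and 945 in wild-type basal libraries. The most abundant of this group were Kidins220, a scaffold of Trk receptors, and the sorting receptor gene Sorl1, each with a mean of 48.3 scaled FPKM.

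Of 6 tested genes of the GDNF family, 3 were called in the basal turn (4.29% of all genes). Gfra4, a co-receptor gene, rose (log2 difference 1.36, limma adjusted p = 0.00739, higher in 2 of 2 libraries). Gas1, a RET-binding relative of the co-receptors and the most abundant of the group with a mean of 54.8 scaled FPKM, fell (-1.95, limma adjusted p = 0.00980, lower in 2 of 2 libraries), as did the ligand gene Nrtn, the second most abundant with a mean of 7.41 (-1.37, limma adjusted p = 0.00998, lower in 2 of 2 libraries). Gas1 was at 134.6 and 51.7 scaled FPKM in wild-type basal libraries and at 23.9 and 18.2 in homozygous ones. Wild-type basal library 1 thus stood apart from its repeat. The marker sums of supporting cells and fibrocytes were also lowest in the homozygous basal libraries. Artn, another ligand gene, fell from the apical to the basal turn within homozygous cochleae (-1.30, limma adjusted p = 0.00898, lower in 2 of 2 libraries).

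Of 21 tested adaptor genes, which couple the receptors to signalling, 2 were called in the basal turn (4.29% of all genes), and both rose. Shc4 had a log2 difference of 1.90 (limma adjusted p = 0.00383, higher in 2 of 2 libraries), and Maged1, a partner of the Ngfr product and the most abundant adaptor gene with a mean of 120.1 scaled FPKM, had 1.14 (limma adjusted p = 0.00725, higher in 2 of 2 libraries). Arhgdia, the next in abundance, had a mean of 109 scaled FPKM and was not called. The neuron sum and the Schwann cell and myelin sum were also higher in homozygous than in wild-type basal libraries. For the genotype effect in the basal minus that in the middle turn, limma called 8 of the 57 genes, beside 8.91% of all genes. They were Sorcs1, Lingo1 (2.91), Islr2 (4.36), Shc2 (1.43), Shc4 (2.7) and Serpini1 (6.20), all with positive log2 differences, and Tnfrsf19 (-2.50) and Dusp6 (-1.17), with negative ones. Between basal and apical turns the only gene called of 57 was Sorcs1 (2.61), beside 0.796% of all genes.

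Genes for cutting neurotrophin precursors gave 0 calls by limma among 8 tested in each turn between genotypes, with 2, 3 and 2 of them at an unadjusted p under 0.05 in apical, middle and basal order, beside 16.4%, 25.4% and 32.4% of all genes. The most abundant were Cpe, with a mean of 155 scaled FPKM, and the protease gene Plat, with 33.6. Within homozygous cochleae the convertase gene Furin fell from the apical to the basal turn (log2 difference -1.26, limma adjusted p = 0.00900, lower in 2 of 2 libraries). Of 11 genes that respond to neurotrophin signalling, limma called 0 between genotypes in each turn, with 0, 0 and 4 at an unadjusted p under 0.05, beside the same shares. The most abundant were the immediate early genes Junb and Egr1, with means of 14.7 and 13.4. The repeats of Egr1 differed in some groups, as in the wild-type basal turn (5.95 and 29.1), and were close in others, as in the homozygous basal turn (6.32 and 5.60).

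In the 3 comparisons within wild-type cochleae limma called 0 of the 57 genes, with 12 at an unadjusted p under 0.05 for basal minus apical, 15 for basal minus middle and 10 for middle minus apical turn, beside 20.3%, 15.2% and 19.9% of all genes. Within homozygous cochleae it called 5 between basal and apical turns, beside 4.06% of all genes, which were Shc2 (1.22), Sorcs1 (1.40), Tnfrsf19 (-1.89), Artn and Furin. It called 4 between basal and middle turns, beside 4.66% of all genes, which were Shc2 (1.10), Shc4 (1.59), Sorcs1 (2.28) and Tnfrsf19 (-1.82), and 0 between middle and apical turns, where 2 had an unadjusted p under 0.05.

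The genes whose values were most like those of each of the 9 over the 12 libraries, by Pearson's r on log2 values among the 9464 or 9465 other genes whose mean reached 5 scaled FPKM, are given as a description. For Bdnf they were 2610507I01Rik and Pls1 (r = 0.94 each) and Mdm1 (0.93). For Ntf3 they were Arhgap28, Robo1 and Il17rd (0.97 each), and for Ntf5 Hexim1 (0.96), Ttc38 and Fam76a (0.95 each). For Ntrk2 they were Ilvbl and Smarcd3 (0.96 each) and Usp22 (0.90), and for Ntrk3 Fam98c, Mapk12 and Dync1li2 (0.94 each). For Ngfr they were Dnajc6 (0.98), Scrt2 (0.97) and Fyn (0.96). For Gfra1 they were Hipk1 (0.98), Stim2 (0.97) and Epha7 (0.96), for Ret Cyb5r1, Eif2b4 (0.95 each) and Ola1 (0.94), and for Sort1 Phlpp1 (0.89), Cpd (0.88) and Mon1b (0.86). The libraries share their groups, and so do these correlations.

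The 9 genes lie on 7 chromosomes of GRCm38, with Ntf3 and Ret both on chromosome 6 and Ntf5 and Ntrk3 both on chromosome 7. Annotated transcripts number 20 for Ntrk3, 11 for Bdnf, 10 for Ntrk2 and 1 for Ngfr. Genes annotated on the opposite strand within Bdnf, Ntrk2, Gfra1 and Sort1 did not exceed 0.119 scaled FPKM, and Gm9885, opposite to Ntrk3, ran from 0.257 to 1.28. Whether reads were assigned by strand is not stated.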

How the data were processed

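RNA of apical, middle and basal cochlear turns, from wild-type mice and from 35delG homozygous mice, was sequenced as 150 nt paired-end reads, 12 libraries in 6 groups of 2. The authors trimmed reads with fastp 0.20.0, aligned them to mm10 with STAR 2.7.3a and calculated FPKM with StringTie 2.0, per their processing notes. The deposited values are FPKM for 37432 genes, with sums of 316425 to 408162 per library; the annotation version is not stated. They hold no read counts, so depth is unknown, no counting error can be given, and p-values measure the spread between libraries. All 12 sample columns were used.

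Each library was divided by a median-of-ratios factor (0.917 to 1.06, over 11552 genes above 0 in every library). Genes with at least 1 FPKM in at least 2 libraries, 16215 in all, were fitted as log2(scaled FPKM + 1) on the 6 groups with limma 3.58.1 in R 4.3.3 (empirical Bayes with trend, two-sided tests, 6 residual and 2.78 prior degrees of freedom). The fit gave 13 comparisons, each adjusted over all genes tested by Benjamini-Hochberg. Calls required both an adjusted p under 0.01 and more than a 2-fold difference. The procedure was tested on simulated data. Values by library, correlations and figures were made with Python 3.11.15 and matplotlib 3.10.9. Gene positions are from GENCODE for GRCm38, and promoter windows from RefSeq.

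The genes named are the 9 genes in every library, the genes of 5 pathway lists that were called, the 2 most abundant of each pathway list, the 3 genes most correlated with each of the 9, the most abundant gene of each of 12 cell type lists, and defining markers listed at 0. Ngfrap1, an older symbol of the listed Bex3, is not in the table. Sorcs1, Egr1, Otof, Atp2b2, Slc26a5, Strc, Chrna10 and Prox1 values by library, marker sums without the leading genes and their correlations, and the markers of bone, blood and vessels named were added after their values were seen. The 9 genes and all lists were chosen with earlier results of these data known. The alternatives tried changed the pseudocount (0.1, 0.01), the filter (none, or 5 FPKM), the scaling (FPKM as deposited, quantile normalization, equal sums), the fit (only the libraries compared, library weights, no trend, a replicate block), the threshold (adjusted p under 0.05, or any fold), or left out each library. A further 3 alternatives were chosen after seeing the data.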

Additional observations from a re-analysis of the deposited data

Results flagged for a closer look

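Ntrk3 had a genotype difference that was not the same in 2 turns by test: the log2 difference between homozygous and wild-type libraries was 2.01 higher in the basal than in the middle turn (limma adjusted p = 0.00392), with 2 of 2 homozygous libraries higher in the basal and 2 of 2 lower in the middle turn. This call was kept in 8 of 11 settings and lost with no filter, only the libraries compared and library weights. It held in 8 of 12 fits that each left out 1 library, and was lost without wild-type basal library 1 and wild-type middle library 1 together. Markers of Schwann cells and myelin (r = 0.76) and of neurons (r = 0.69) moved with Ntrk3 over the 12 libraries. Those of hair cells (r = -0.74) and supporting cells (r = -0.71) moved opposite to it.

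Ngfr had a genotype difference that changed between these turns by this test, 4.98 higher in the basal than in the middle turn on the log2 scale (limma adjusted p = 0.00453), again with 2 of 2 homozygous libraries higher in the basal and 2 of 2 lower in the middle turn. This call was kept in 9 of 11 settings and lost with no filter and with only the libraries compared. It held in 6 of 12 fits that each left out 1 library and was lost without the same 2 wild-type libraries together. Neuron markers moved with Ngfr (r = 0.93). What lies behind either difference was not tested.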

How the results depend on the processing

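Of the values of the 9 genes under the alternatives, 856 kept their direction and their side of the threshold, 99 kept the direction and lost the call, 17 kept it and gained a call, and 17 turned sign. Of the counts of genes called, 261 stayed, 65 fell and 14 grew. Where a value or call changed, the cause was not tested, except where a setting itself changes the number of genes or libraries tested.

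The 2 genes called in the basal turn became 0 with no filter, with only the libraries of the groups compared, with library weights and with the replicate number as a block, 1 with a filter of 5 FPKM and with equal sums, and 4 at an adjusted p under 0.05. The 1 gene called in the mean of turns became 0 with no filter and with a filter of 5 FPKM. The 2 genes called for the basal minus middle genotype effect became 0 with no filter and with only the libraries compared, and 1 with library weights. Basal minus apical, 0 genes became 1 with equal sums and 2 at an adjusted p under 0.05. In the apical turn 0 became 1 (Bdnf) with library weights, with no trend and at an adjusted p under 0.05. Within homozygous cochleae, the 1 gene called between basal and apical turns became 0 with no filter, equal sums, only the libraries compared and the replicate block, 2 with quantile normalization and 3 at an adjusted p under 0.05. The 2 called between basal and middle turns became 0 with no filter, only the libraries compared, library weights and the replicate block, and 1 with pseudocounts of 0.1 and 0.01, FPKM as deposited and equal sums. Removing the limit on the fold changed 0 of these counts. The share of all genes called under each of these settings is not given here. A change in a count therefore cannot be read as particular to the genes described.

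Over these settings the log2 difference of Bdnf in the basal turn ran from -4.01 (pseudocount 0.01) to -1.30 and was called in 6 of 10, and that in the mean of turns from -2.55 to -1.11, called in 9 of 10 (adjusted p 0.00102 to 0.0119). Ntrk3 in the basal turn ran from 1.28 to 1.45 (6 of 11 called), its basal minus middle effect from 1.87 to 2.24 (8 of 11), and that of Ngfr from 4.85 to 6.01 (9 of 11). With a replicate block the log2 differences did not move (Bdnf -1.39, Ntrk3 1.32 in the basal turn). Whether libraries with the same replicate number share animals is not given. Of 15 pairs of groups, 4 had a correlation over 0.1 between the repeats' differences, from -0.43 to 0.45. These correlations cannot decide it, since the repeats also differed in cell type markers and some pairs cross the genotypes.

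When each library was left out in turn, the number of genes called ran from 0 to 5 in the basal turn, 0 to 2 in the mean of turns, 0 to 2 for basal minus middle and 0 to 1 for basal minus apical effects, and 0 to 2 for both comparisons with the basal turn within homozygous cochleae. The group left with 1 library is then assumed to vary like the others. The share of all genes called is not given for these fits or for those of the next paragraph. Their counts are therefore not set against a background and cannot be read as particular to the genes described. The values that turned sign were not called. Ntf3 in the middle turn was 0.0074 and 0.0094 with pseudocounts of 0.1 and 0.01, 0.10 with FPKM as deposited, 0.071 with equal sums and -0.23 to 0.23 with a library left out. Sort1 was -0.058 in the apical turn with equal sums, and with a library left out -0.67 to 0.073 in the middle and -0.31 to 0.075 in the basal turn. With a library left out, Ntf3 was -0.70 to 0.077, Ntf5 -0.20 to 0.0062 and Ret -0.19 to 0.096 in the apical turn.

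Chosen after seeing the data, the fit without wild-type basal library 1 and wild-type middle library 1 called 0 genes in the basal turn, 0 in the mean of turns, 0 for basal minus middle effects and 3 within homozygous cochleae for basal minus apical turn, and put Sort1 in the middle turn at 0.079. The mean over apical and middle turns alone called 1 gene, and 0 without wild-type middle library 1. Bdnf, Ntf3, Ntf5 and Ret have no value under the filter of 5 FPKM, and Ret has none in the fits that left out a homozygous basal library. Relative to the reported scaling, FPKM as deposited shifted the median log2 difference of all genes by 0.13 in the middle turn and -0.13 for basal minus middle effects, and equal sums by -0.10 in the apical turn and 0.18 for basal minus apical effects. Depth is unknown, so values near 0 have no detection limit.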

Other observations

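Cell types outside the nerve and the sensory epithelium also differed between libraries. The 8 markers of the stria vascularis, the tissue that secretes endolymph, summed to 221 and 226 scaled FPKM in wild-type apical, 279 and 175 in middle, and 279 and 1086 in basal libraries, against 668 and 1641, 773 and 1245, and 618 and 175 in homozygous libraries. Homozygous libraries were higher in the apical and middle turns without overlap, and limma called 0 of 8 markers in each turn, with 7, 7 and 0 at an unadjusted p under 0.05 from apex to base, beside 16.4%, 25.4% and 32.4% of all genes, shares that apply to the counts below too. The most abundant of them was Atp1b2. The 6 markers of fibrocytes of the spiral ligament and limbus, led by Coch, summed to 2709 and 468 in the homozygous basal libraries and to 6925 to 12641 in the other 10. Limma called 0 of the 6 in each turn, with 1, 1 and 3 at an unadjusted p under 0.05.

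Markers of bone cells (6 genes, led by Ibsp) summed to 52.2 to 2353 scaled FPKM, of erythroid cells (5 genes, led by Hbb-bs) to 232 to 4991, of macrophages (6 genes, led by C1qb) to 42.5 to 191 and of endothelial cells (5 genes, led by Cldn5) to 27.1 to 62.1. Bone and erythroid sums were highest in wild-type basal library 2. Limma called 0 genes of these 4 lists in each turn; at an unadjusted p under 0.05 there were 1, 1 and 0 of the bone, 0, 0 and 5 of the erythroid, 2, 0 and 0 of the macrophage and 1, 1 and 1 of the endothelial markers from apex to base. Of these, the 5 erythroid markers and the endothelial gene Tek were lower in homozygous basal libraries, and the others (Ibsp and C1qa, C1qb, Pecam1 in the apical, Col1a1 and Pecam1 in the middle turn) were higher.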
